A study of Mus musculus with 12 samples.

Results

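The comparison described here sets B16.F10 tumors injected with NanoISD against tumors injected with PBS, and asks which secreted signals of a myeloid gene panel a tumor turned on after it received DNA in a nanoparticle. Members were chosen by the sample titles, which gave 4 NanoISD-treated and 4 PBS-treated tumors, or 8 of the 12 tumors in the series, and by gene, which left 43 of the 48 measured genes once the 5 house-keeping genes were set aside. B16.F10 is a melanoma cell line of the C57BL/6 mouse, and all tumors grew under the skin of female C57BL/6J mice that were inoculated at 6 to 8 weeks of age. At about 200 mm3, a tumor was injected with 100 µL of PBS alone or of NanoISD, double-stranded DNA carried by the polymer D-PDB, at 2 µg, and 6 hours later its RNA was collected. The remaining 4 tumors received free D-PDB, the empty carrier, so a difference between NanoISD and PBS covers the DNA and the carrier together. Each value is the level in a whole tumor of a single cell line. In such a sample, more cells of a type and more RNA per cell cannot be told apart. The panel holds 0 of the 4 melanocyte genes listed to check the tissue (*Mlana*, *Pmel*, *Tyr*, and *Dct*), so the label of the tissue was not checked.

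DNA in the cytosol is sensed by the enzyme cGAS, which makes the messenger cGAMP. This activates STING, and STING drives the transcription factors IRF3 and NF-κB. IRF3 turns on type I interferons and genes such as *Cxcl10*, and NF-κB turns on *Il6*, the neutrophil chemokines, and the colony-stimulating factors. Most genes of the panel encode chemokines, small proteins that draw leukocytes along a gradient, and each chemokine acts through a small set of receptors. The ligands were therefore grouped by receptor class, from textbook knowledge. CXCR2 is the receptor of neutrophils, CXCR3 of activated T cells and NK cells, CCR2 of inflammatory monocytes, and CCR4 and CCR8 of regulatory and type 2 helper T cells.

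The values are NanoString log2 fold changes, in which 1 unit is a 2-fold change, relative to the house-keeping genes and to the PBS-treated tumors. The PBS-treated tumors therefore average 0 for each gene. Counts were not available for these values, so the depth behind them is unknown and the number of tumors limits the precision. The NanoISD-treated tumors differed among themselves. The mean over the 43 genes was 2.45 in tumor 1, 0.58 in tumor 2, 1.65 in tumor 3, and 1.14 in tumor 4, against -0.15 to 0.22 after PBS (difference in log2 fold change 1.46, two-sided exact permutation test, p = 0.0286, the smallest p that 4 tumors against 4 allow). Tumor 1 had the highest mean and tumor 2 the lowest. Among the house-keeping genes, the mean of *Gapdh* was lower after NanoISD by 0.33 and the other 4 were higher by 0.01 to 0.19 on the log2 scale. The mean over these genes is close to 0 in every tumor, so their differences offset each other. *Rpl19* was at 0.09 to 0.28 after NanoISD and at -0.03 to 0.03 after PBS. A small shift in a house-keeping gene thus also left no overlap between the groups.

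Of the 43 genes, 39 had a higher mean after NanoISD. In limma, fitted to the 12 tumors of the series, 22 of the 43 genes (51.2%) were higher at an adjusted p of 0.05 (Benjamini-Hochberg). None was lower (0 of 43, and 0 at an unadjusted p under 0.05). All 22 rose by more than 2-fold, and 13 of them by more than 4-fold. The other 21 genes were divided by size. For 12 genes the mean differed by more than 0.5 on the log2 scale without passing the threshold, and these are called undecided. For 9 genes the difference lay between -0.5 and 0.5, and these are called unresponsive, with the interval that the data allow. By family, 9 of 12 CC chemokines rose (median difference 1.95), 7 of 15 CXC chemokines (1.14), and 6 of 15 other cytokines (0.82), beside a median of 1.20 over the panel. These medians are on the log2 scale and were not compared by a test.

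**Figure D1:**
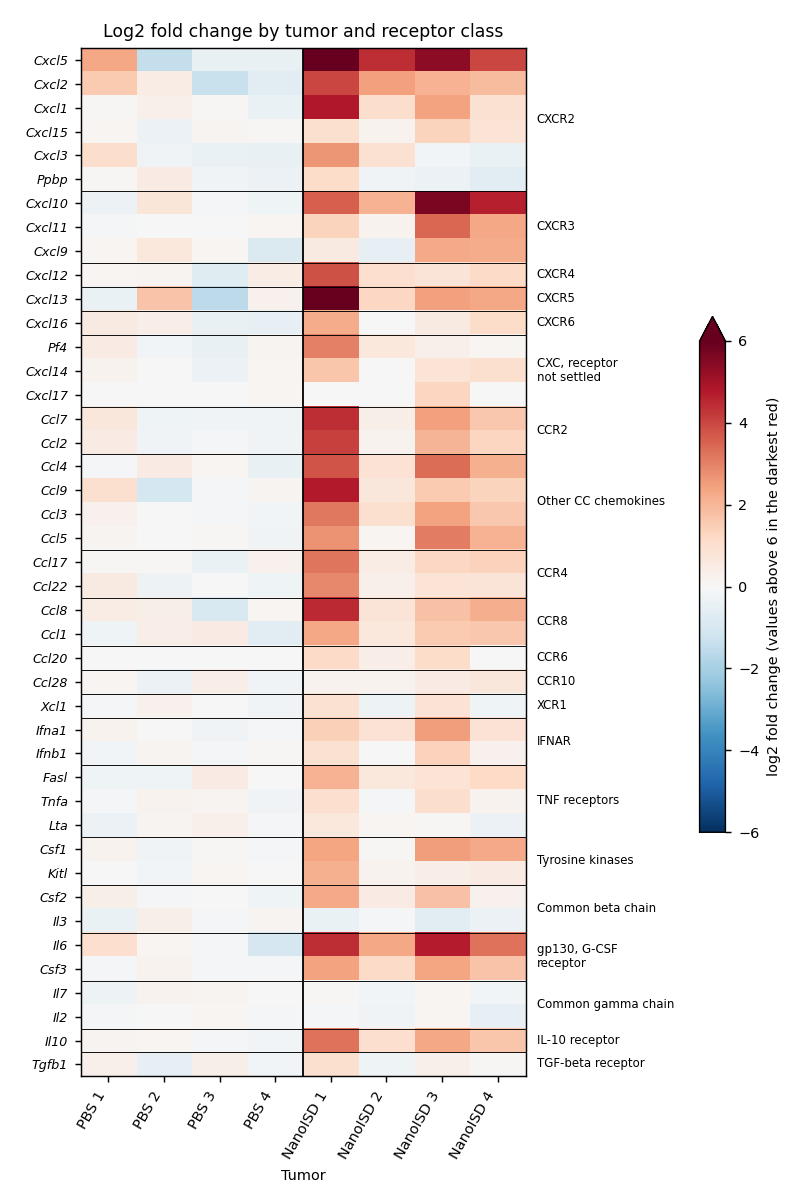
Log2 fold change of the 43 panel genes (rows, grouped by the receptor of the ligand) in the 4 PBS-treated and 4 NanoISD-treated tumors (columns). NanoISD tumor 1 holds the highest value of its group in 28 genes and tumor 3 in 13, and tumor 2 is the palest of the group.

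Ranked by the size of the difference, the neutrophil chemokine *Cxcl5* stood first (5.47 on the log2 scale, 44.4-fold). It was followed by the interferon-induced chemokine *Cxcl10* (3.99, 15.9-fold), the acute-phase cytokine *Il6* (3.68, 12.8-fold), the B cell chemokine *Cxcl13* (3.09, 8.49-fold), and *Cxcl2* (2.62, 6.15-fold). *Ccl4*, *Cxcl1*, *Ccl8*, *Ccl7*, and *Ccl9* completed the first 10, with log2 differences between 2.09 and 2.53. For 9 genes the 95% interval of the difference lay wholly above 1 log2 unit, that is, above a 2-fold change. They were *Cxcl5*, *Cxcl10*, *Il6*, *Cxcl13*, *Cxcl2*, *Ccl4*, *Il10*, *Ccl3*, and *Csf3*.

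**Figure D2:**
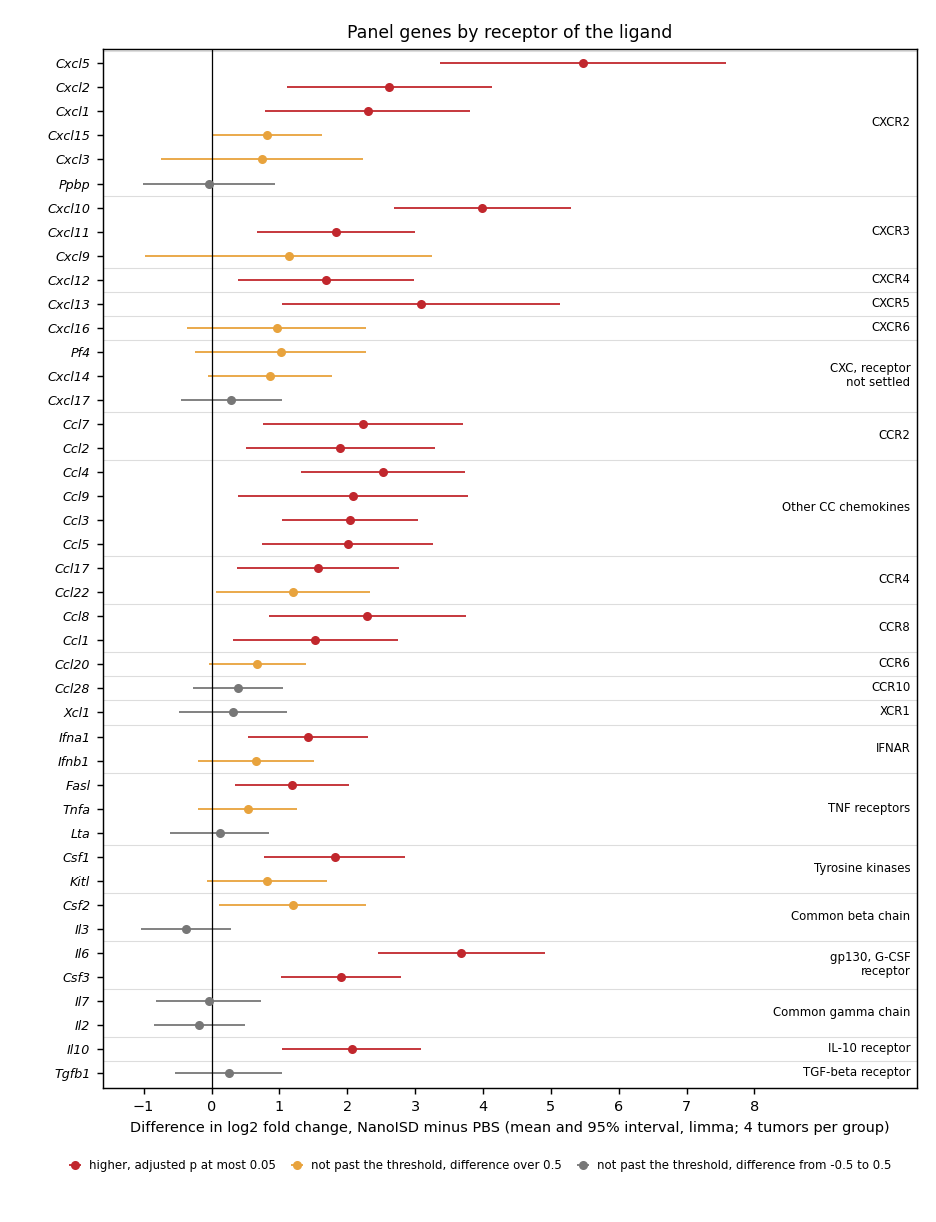
Difference in log2 fold change between NanoISD and PBS (points) with its 95% interval in limma (lines) for each panel gene, grouped by receptor class. The 22 genes in red passed an adjusted p of 0.05, the 12 in orange did not and differed by more than 0.5, and the 9 in gray differed by -0.5 to 0.5.

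Consistency over tumors was ranked by the number of the 16 NanoISD-PBS tumor pairs in which the NanoISD tumor was higher. Ties were ordered by the gap between the lowest NanoISD and the highest PBS tumor. This gap grows with the size of the difference and does not measure how alike the NanoISD tumors were. In 18 genes (41.9%) the groups did not overlap, with 16 of 16 pairs higher, and 0 genes were separated in the other direction. *Cxcl5* led this order too, with a gap of 1.68 on the log2 scale, followed by *Cxcl10* (1.35), *Il6* (1.30), *Csf3* (0.93), and *Il10* (0.86). The NanoISD values were more spread in *Cxcl5* (SD 1.83, n = 4) than in *Csf3* (SD 0.60, n = 4). The orders by size and by consistency, which are not independent, shared 6 of their first 10 genes. *Csf3*, *Il10*, *Ccl3*, and *Ifna1* entered the first 10 by consistency alone, and *Cxcl13*, *Ccl8*, *Ccl7*, and *Ccl9* by size alone. 16 of the 22 raised genes were without overlap. The 6 others were *Cxcl13*, *Ccl7*, *Ccl9*, *Ccl5*, *Ccl2*, and *Csf1*, and in each of them NanoISD tumor 2 lay inside the PBS range. Conversely, *Cxcl15* and *Kitl* did not overlap between groups but had small differences (0.82 for both on the log2 scale) and did not pass.

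**Figure D3:**
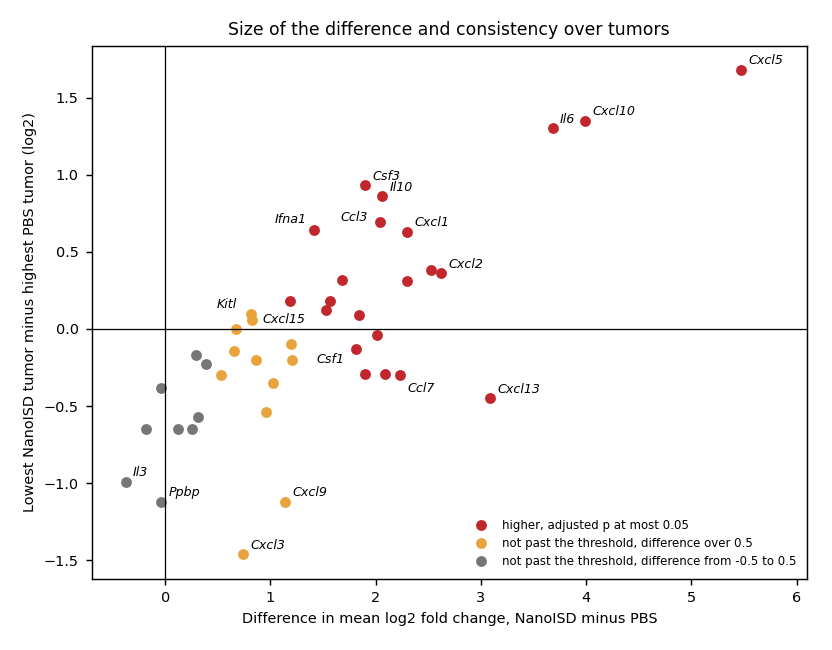
Mean difference between NanoISD and PBS (horizontal axis) against the gap between the lowest NanoISD and the highest PBS tumor (vertical axis), both in log2 units, with a point for each of the 43 genes. Points above 0 on the vertical axis are the 18 genes without overlap. *Cxcl5*, *Il6*, and *Cxcl10* lie apart at the upper right, and *Cxcl13*, with the fourth largest difference, lies below 0.

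The position of a gene among the 43 within each tumor gives a view that does not depend on how strongly the tumor as a whole responded. *Cxcl5* held position 1, 1, 2, and 2 in NanoISD tumors 1, 2, 3, and 4, and *Il6* held 7, 3, 3, and 3. *Il10* (positions 8 to 14) and *Ccl3* (10 to 15) were also steady. *Ccl5* ranged from position 6 to 29 and *Csf1* from 6 to 31, so that genes with similar mean differences (2.01 and 1.81 on the log2 scale, against 2.05 for *Ccl3*) differed in how evenly the tumors showed them. The top position of *Cxcl5* was not particular to NanoISD. It was also the highest of the 43 genes in every D-PDB tumor and in PBS tumor 1 (2.34), and the lowest in PBS tumor 2 (-1.45).

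**Figure D4:**
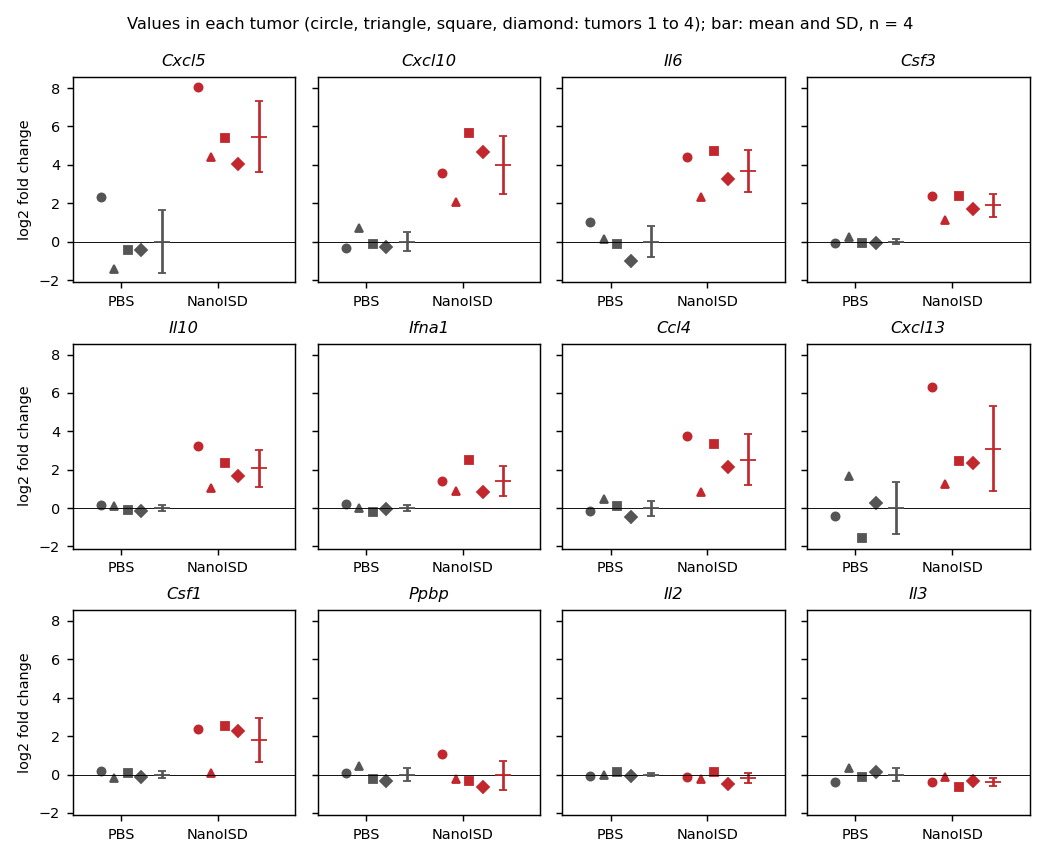
Log2 fold change in each PBS-treated (gray) and NanoISD-treated (red) tumor for 12 genes (circle, triangle, square, and diamond for tumors 1 to 4), with the mean and SD of the 4 tumors beside the points. *Cxcl5*, *Cxcl10*, *Il6*, *Csf3*, *Il10*, *Ifna1*, and *Ccl4* show no overlap, *Cxcl13* and *Csf1* overlap through tumor 2, and the NanoISD means of *Ppbp*, *Il2*, and *Il3* lie at or below 0.

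The 6 ligands of CXCR2 spanned nearly the whole range of the panel, with 3 raised, 2 undecided, and 1 unresponsive (median difference 1.56 on the log2 scale). *Cxcl5* was at 2.34, -1.45, -0.44, and -0.44 in PBS tumors 1 to 4 and at 8.08, 4.41, 5.39, and 4.02 in NanoISD tumors 1 to 4. All NanoISD values exceeded the highest PBS value, although PBS tumor 1 was itself high (difference 5.47, standard error 0.98, adjusted p = 0.00117 in limma). *Cxcl2*, a strong neutrophil attractant, was at 1.55, 0.43, -1.34, and -0.64 after PBS and at 4.01, 2.46, 2.10, and 1.91 after NanoISD. The groups were separated by 0.36 on the log2 scale (difference 2.62, standard error 0.70, adjusted p = 0.0115 in limma). *Cxcl1* was at 0.05, 0.29, 0.06, and -0.39 after PBS and at 4.80, 1.07, 2.42, and 0.92 after NanoISD. The groups were separated here as well, and tumor 1 was far above the other NanoISD tumors (difference 2.30, adjusted p = 0.0169 in limma, and 1.47 without tumor 1). *Cxcl3*, a close relative of the previous pair, was undecided at 0.74, with tumor 1 (2.64) above all PBS tumors and tumors 2, 3, and 4 (0.90, -0.18, and -0.40) below PBS tumor 1 (1.06). Without NanoISD tumor 1 its difference was 0.11. *Cxcl15*, a chemokine known from lung epithelium, differed by 0.82 (adjusted p = 0.0765 in limma). It passed without NanoISD tumor 2 (1.03, adjusted p = 0.0278 in limma) and with array weights, which left the difference at 0.82 (adjusted p = 0.0435). *Ppbp*, the platelet member of the class, was unresponsive. It was at 0.08, 0.47, -0.21, and -0.34 after PBS and at 1.08, -0.21, -0.36, and -0.65 after NanoISD, a difference of -0.04 (95% interval -1.01 to 0.94).

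The upstream sequences of *Cxcl1*, *Cxcl2*, and *Cxcl3* are shown because these neighboring genes carry the same letters of an NF-κB site close to the start and did not all pass the test. That of *Il6* is shown because it carries the same letters and stood near the top in every NanoISD tumor. Each is the 250 bases before the transcription start, from the RefSeq table of build GRCm38.p6, written 5′ to 3′ on the strand of the gene. Capitals mark the letters searched on both strands, GGGA and TTTCC with any base between them.
Cxcl1, chr5:90890995-90891244, + strand: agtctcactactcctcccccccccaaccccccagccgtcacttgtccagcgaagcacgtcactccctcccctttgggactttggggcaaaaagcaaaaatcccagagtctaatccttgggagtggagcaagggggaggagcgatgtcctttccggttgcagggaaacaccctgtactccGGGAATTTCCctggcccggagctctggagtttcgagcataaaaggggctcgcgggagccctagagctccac
Cxcl2, chr5:90903649-90903898, + strand: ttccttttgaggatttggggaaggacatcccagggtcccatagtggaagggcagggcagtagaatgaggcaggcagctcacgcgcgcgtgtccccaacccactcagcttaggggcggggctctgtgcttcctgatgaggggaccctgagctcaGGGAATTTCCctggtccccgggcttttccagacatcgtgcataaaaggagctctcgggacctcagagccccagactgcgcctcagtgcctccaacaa
Cxcl3, chr5:90785851-90786100, + strand: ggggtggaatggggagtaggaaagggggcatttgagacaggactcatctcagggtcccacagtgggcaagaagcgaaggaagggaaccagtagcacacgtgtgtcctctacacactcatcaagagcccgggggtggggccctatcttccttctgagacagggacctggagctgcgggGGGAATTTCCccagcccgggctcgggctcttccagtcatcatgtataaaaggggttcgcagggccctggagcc
Il6, chr5:30012864-30013113, + strand: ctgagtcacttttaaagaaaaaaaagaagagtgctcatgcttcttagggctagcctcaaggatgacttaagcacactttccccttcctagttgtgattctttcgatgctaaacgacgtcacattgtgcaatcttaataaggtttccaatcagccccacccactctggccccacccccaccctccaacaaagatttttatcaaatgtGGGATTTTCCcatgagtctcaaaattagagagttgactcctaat
The first base of the match lay 71 bases before the start in *Cxcl1*, 97 in *Cxcl2*, 73 in *Cxcl3*, and 44 in *Il6*. A match describes the letters and is not evidence of binding. Over the 32851 windows of the table, 0.356% held these letters. Windows were found for 32 of the 43 genes, and *Ccl2*, *Ccl4*, *Ccl5*, *Ccl7*, *Csf3*, *Cxcl5*, *Cxcl11*, *Cxcl16*, *Cxcl17*, *Il7*, and *Il10* had none. The letters were present in 4 of the 14 raised genes with a window (*Csf1*, *Cxcl1*, *Cxcl2*, and *Il6*) and in 1 of the 18 others (*Cxcl3*). The 18 others include undecided and unresponsive genes. Sites with other letters were not searched, so a gene without these letters can still hold an NF-κB site.

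Of the 3 ligands of CXCR3, which are induced by interferon, 2 rose (median difference 1.84 on the log2 scale). *Cxcl10* was at -0.34, 0.72, -0.12, and -0.26 after PBS and at 3.59, 2.07, 5.64, and 4.67 after NanoISD. Every NanoISD tumor exceeded every PBS tumor, with tumor 3 highest (difference 3.99, standard error 0.60, adjusted p = 0.000448 in limma). *Cxcl11* rose by 1.84 (adjusted p = 0.0155 in limma), with values from 0.22 in tumor 2 to 3.45 in tumor 3 against at most 0.13 after PBS. The RefSeq annotation of GRCm38.p6, which is a C57BL/6J genome, lists *Cxcl11* as a transcribed pseudogene, so the rise is that of the transcript and says nothing of a protein. *Cxcl9* was at 0.55, -0.50, 2.29, and 2.21 after NanoISD and from -0.89 to 0.62 after PBS. It was above the PBS range in tumors 3 and 4, and the difference of 1.14 did not pass (adjusted p = 0.327 in limma, 95% interval -0.98 to 3.25). It was 0.75 without NanoISD tumor 3 and 0.78 without tumor 4.

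The upstream sequences of *Cxcl10* and of the interferon gene *Ifna1* are shown because both rose without overlap between the groups and both carry the letters of an interferon-stimulated response element. The letters, given in capitals, are GAAA and GAAA with any pair of bases between them (250 bases before the start, RefSeq table of GRCm38.p6, both strands searched).
Cxcl10, chr5:92348890-92349139, - strand: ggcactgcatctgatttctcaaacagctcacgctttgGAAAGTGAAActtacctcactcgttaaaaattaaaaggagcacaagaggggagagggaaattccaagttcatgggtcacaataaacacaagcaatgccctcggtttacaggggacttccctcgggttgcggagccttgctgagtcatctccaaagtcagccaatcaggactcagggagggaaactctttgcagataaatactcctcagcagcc
Ifna1, chr4:88849837-88850086, + strand: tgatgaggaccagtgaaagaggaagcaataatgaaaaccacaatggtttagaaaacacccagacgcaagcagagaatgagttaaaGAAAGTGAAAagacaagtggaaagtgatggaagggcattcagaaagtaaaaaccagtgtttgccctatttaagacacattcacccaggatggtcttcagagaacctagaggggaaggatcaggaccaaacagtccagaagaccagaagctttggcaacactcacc
The match began 213 bases before the start in *Cxcl10* and 165 in *Ifna1*. These letters were present in 2 of the 14 raised genes with a window, in 1 of the 18 others (*Cxcl14*), and in 2.98% of all windows.

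Among the CXC chemokines with a receptor to themselves, *Cxcl13*, the CXCR5 ligand that draws B cells, was at -0.39, 1.69, -1.55, and 0.25 after PBS and at 6.31, 1.24, 2.45, and 2.34 after NanoISD. PBS tumor 2 exceeded NanoISD tumor 2, and NanoISD tumor 1 was far above all others. The difference was 3.09 (standard error 0.95, adjusted p = 0.0169 in limma). It was 2.01 without NanoISD tumor 1, and without PBS tumor 3 it was 2.57 and no longer passed (adjusted p = 0.0552 in limma). *Cxcl12*, the stromal ligand of CXCR4, differed by 1.68 (adjusted p = 0.0322 in limma). This call was lost without NanoISD tumor 1, where the value was 3.80 (difference 0.98), and without PBS tumor 1, 2, or 3 (1.72, 1.74, and 1.44). *Cxcl16*, the CXCR6 ligand, was undecided at 0.96 (adjusted p = 0.188 in limma), and at 0.54 without NanoISD tumor 1, where the value was 2.22. None of the 3 CXC chemokines without a settled receptor passed (0 of 3). *Pf4*, stored in platelets, was at 0.47, -0.18, -0.45, and 0.15 after PBS and at 3.02, 0.62, 0.31, and 0.12 after NanoISD, so that its difference of 1.02 was 0.35 without tumor 1. *Cxcl14* differed by 0.86 (adjusted p = 0.0997 in limma) and passed without NanoISD tumor 2, at 1.14. *Cxcl17*, a mucosal chemokine, was above the value shared by the other NanoISD tumors, -0.04, in tumor 3 alone.

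Among the CC chemokines, both CCR2 ligands rose. *Ccl7* was at 0.67, -0.27, -0.19, and -0.21 after PBS and at 4.44, 0.37, 2.47, and 1.64 after NanoISD. Tumor 2 lay below PBS tumor 1 and the other 3 NanoISD tumors above all PBS tumors (difference 2.23, standard error 0.68, adjusted p = 0.0169 in limma). *Ccl2*, the main monocyte attractant, differed by 1.90 (adjusted p = 0.0275 in limma), with the same order of tumors. Its call was lost without NanoISD tumor 1 or 3 (1.17 and 1.85) and without PBS tumor 2, 3, or 4 (1.82, 1.88, and 1.83).

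Of the other CC chemokines, *Ccl4*, an attractant of monocytes and T cells, was at -0.14, 0.47, 0.13, and -0.46 after PBS and at 3.77, 0.85, 3.34, and 2.14 after NanoISD. The groups did not overlap (difference 2.53, standard error 0.56, adjusted p = 0.00476 in limma). *Ccl3* followed at 2.05 (adjusted p = 0.00476 in limma), also without overlap. *Ccl5* rose by 2.01 (adjusted p = 0.0155 in limma), with 0.14 in NanoISD tumor 2 against 2.10 to 3.09 in the other 3. *Ccl9* was at 0.96, -1.06, -0.05, and 0.15 after PBS and at 4.76, 0.67, 1.59, and 1.32 after NanoISD. PBS tumor 1 exceeded NanoISD tumor 2, and the difference was 2.09 (adjusted p = 0.0382 in limma). The call was lost without NanoISD tumor 1 or 3 (1.19 and 2.25), without PBS tumor 2, 3, or 4 (1.73, 2.07, and 2.14), and without D-PDB tumor 1, which left the difference at 2.09.

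Both CCR8 ligands rose. *Ccl8*, which in the mouse acts on CCR8, was at 0.44, 0.37, -0.93, and 0.12 after PBS and at 4.47, 0.75, 1.77, and 2.19 after NanoISD. The groups were separated by 0.31 on the log2 scale (difference 2.30, standard error 0.67, adjusted p = 0.0155 in limma). *Ccl1* differed by 1.53 without overlap (adjusted p = 0.0362 in limma), and its call was lost without NanoISD tumor 1, 3, or 4 (1.27, 1.52, and 1.50) or PBS tumor 1, 2, or 4 (1.44, 1.66, and 1.32). It was also lost with the replicate number as a block, which left the difference at 1.53 (adjusted p = 0.0563). Of the CCR4 ligands, *Ccl17* was at 0.08, 0.08, -0.42, and 0.26 after PBS and at 3.23, 0.44, 1.22, and 1.38 after NanoISD. All NanoISD values were higher (difference 1.57, adjusted p = 0.0322 in limma), but the call was lost without NanoISD tumor 1 (1.01) or PBS tumor 1, 2, or 3 (1.59, 1.59, and 1.43). *Ccl22* differed by 1.20 and was undecided (adjusted p = 0.0719 in limma). Without NanoISD tumor 1 the difference was 0.64 (adjusted p = 0.212 in limma), and without NanoISD tumor 2 it was 1.50 and passed (adjusted p = 0.0281 in limma). *Ccl20*, the CCR6 ligand, was at 0 in all PBS tumors and in NanoISD tumor 4, a value it shared in 8 of the 12 tumors. Its difference of 0.67 (adjusted p = 0.0997 in limma) passed without NanoISD tumor 4, at 0.90. *Ccl28*, a mucosal ligand of CCR10, and *Xcl1*, which draws cross-presenting dendritic cells through XCR1, were unresponsive, with differences of 0.39 and 0.31.

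Of the 2 type I interferons, which share the receptor IFNAR, *Ifna1* was at 0.22, 0.03, -0.19, and -0.06 after PBS and at 1.42, 0.88, 2.51, and 0.86 after NanoISD. No NanoISD tumor fell into the PBS range (difference 1.42, standard error 0.41, adjusted p = 0.0155 in limma), and the call held in each of the 12 fits with a tumor left out. The interferon alpha genes are near-identical copies, and whether the probe reads *Ifna1* alone is not known. *Ifnb1* was at 0.92, 0.02, 1.38, and 0.28 after NanoISD against -0.17 to 0.16 after PBS. Its difference of 0.65 was undecided (adjusted p = 0.178 in limma, 95% interval -0.20 to 1.50), and was 0.41 without NanoISD tumor 3.

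In the TNF family, *Fasl*, which kills target cells through Fas, rose and the other 2 members did not pass. *Fasl* was at -0.25, -0.25, 0.47, and 0.02 after PBS and at 2.09, 0.65, 0.82, and 1.18 after NanoISD. The groups were separated by 0.18 (difference 1.19, standard error 0.39, adjusted p = 0.0224 in limma). The call was lost without NanoISD tumor 1 (0.89) and without PBS tumor 1 or 2 (1.11 for each). *Tnf*, given in the data as *Tnfa*, differed by 0.54 (adjusted p = 0.188 in limma), and *Lta* by 0.12 (95% interval -0.61 to 0.85). The sign of *Lta* turned in 3 alternatives.

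Among the growth factors of the myeloid lineages, *Csf3*, the granulocyte factor, was at -0.07, 0.22, -0.07, and -0.07 after PBS and at 2.40, 1.15, 2.37, and 1.70 after NanoISD. It was clear of the PBS range in every tumor, and had the smallest spread of the 22 raised genes (SD 0.60, n = 4, difference 1.90, adjusted p = 0.00476 in limma). The value -0.07 was its lowest in the series and was shared by 5 of the 12 tumors. *Csf1*, the macrophage factor, was at 0.21, -0.19, 0.09, and -0.11 after PBS and at 2.39, 0.08, 2.51, and 2.27 after NanoISD. It was raised alike in 3 tumors and not in tumor 2 (difference 1.81, standard error 0.48, adjusted p = 0.0115 in limma, and 2.39 without tumor 2). *Kitl*, the stem cell factor, differed by 0.82 (adjusted p = 0.106 in limma) and by 0.38 without NanoISD tumor 1. *Csf2*, the granulocyte-macrophage factor, was at 0.36, -0.05, -0.04, and -0.27 after PBS and at 2.27, 0.49, 1.78, and 0.26 after NanoISD. Only tumor 4 lay within the PBS range, and the difference of 1.20 fell just short of the threshold (adjusted p = 0.0607 in limma). It passed without NanoISD tumor 2 or 4 (1.44 and 1.51) and without D-PDB tumor 2 (1.20). *Il3*, which shares the common beta chain with *Csf2*, was at -0.39, 0.36, -0.12, and 0.15 after PBS and at -0.38, -0.13, -0.63, and -0.36 after NanoISD. This was the lowest difference of the panel, -0.38, and it did not pass (95% interval -1.03 to 0.28).

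*Il6* was at 1.0, 0.13, -0.13, and -1.0 after PBS and at 4.42, 2.30, 4.73, and 3.28 after NanoISD. The lowest NanoISD tumor exceeded the highest PBS tumor by 1.30 on the log2 scale (difference 3.68, standard error 0.57, adjusted p = 0.000448 in limma). *Il10*, which restrains inflammatory macrophages, was at 0.17, 0.10, -0.11, and -0.15 after PBS and at 3.24, 1.03, 2.34, and 1.66 after NanoISD. It rose in all 4 tumors alongside *Il6* (difference 2.07, standard error 0.48, adjusted p = 0.00476 in limma). *Tgfb1*, the other regulatory cytokine of the panel, was unresponsive at 0.25 (95% interval -0.53 to 1.04). Neither ligand of the common gamma chain responded. *Il2*, made by activated T cells, was at -0.05, -0.02, 0.14, and -0.07 after PBS and at -0.14, -0.21, 0.13, and -0.51 after NanoISD, a difference of -0.18 (95% interval -0.86 to 0.49). *Il7*, made by stromal cells, was at -0.32, 0.21, 0.15, and -0.04 after PBS and at 0.05, -0.15, 0.10, and -0.17 after NanoISD, a difference of -0.04 (95% interval -0.82 to 0.73). For both genes the groups overlapped.

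The 9 unresponsive genes were thus *Ccl28*, *Xcl1*, *Cxcl17*, *Tgfb1*, *Lta*, *Ppbp*, *Il7*, *Il2*, and *Il3*. They come from 8 of the groups above, *Il2* and *Il7* sharing a group. The upper ends of their 95% intervals lay between 0.28 (*Il3*) and 1.10 (*Xcl1*), so that the data leave room for a rise of up to 2.15-fold in *Xcl1*. Without NanoISD tumor 2 the difference of *Xcl1* was 0.51, which is past the limit of 0.5, and it did not pass the test (adjusted p = 0.217 in limma). The values carry no absolute level, so how strongly these genes were expressed is not known. For *Cxcl17* the lowest value, -0.04, was shared by 10 of the 12 tumors.

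The NanoISD-treated tumors differed in which classes they raised most, a pattern chosen after the values were seen and given as a description. Of the 22 raised genes, 16 were highest in tumor 1 and 6 in tumor 3, and 17 were lowest in tumor 2. Over the 43 genes, 29 were higher in tumor 1 than in tumor 3 and 14 were higher in tumor 3. All 3 CXCR3 ligands and both interferons were among the 14. *Cxcl10* stood at 5.64 in tumor 3 and 3.59 in tumor 1, *Cxcl11* at 3.45 and 1.33, and *Ifna1* at 2.51 and 1.42. *Il6*, *Ccl5*, and *Csf1* were also higher in tumor 3, by 0.31, 0.38, and 0.12 on the log2 scale. In contrast, both CCR2 ligands, both CCR4 ligands, both CCR8 ligands, and 5 of the 6 CXCR2 ligands were highest in tumor 1. *Cxcl13* was at 6.31 there against 2.45 in tumor 3, and *Ccl9* at 4.76 against 1.59.

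**Figure D5:**
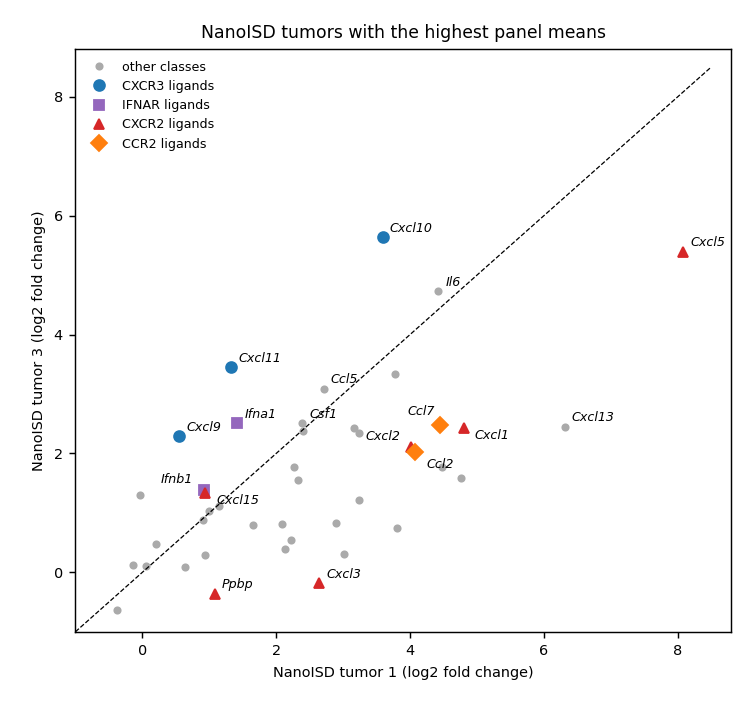
Log2 fold change of the 43 genes in NanoISD tumor 1 (horizontal axis) and tumor 3 (vertical axis), with the dashed line where both are equal. The CXCR3 and IFNAR ligands lie above the line, and the CCR2 ligands and all CXCR2 ligands other than *Cxcl15* lie below it.

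Ligands were also read as lists, each named for a kind of cell that makes them. Other cells may make them as well, and their source in these tumors was not checked. For the platelet ligands *Pf4* and *Ppbp*, 0 of 2 passed, and their mean log2 value was 2.05 in NanoISD tumor 1 and -0.27 to 0.21 in the other 3, against -0.33 to 0.28 after PBS. In NanoISD tumor 1, *Pf4* was at 3.02 and *Ppbp* at 1.08. For the stromal ligands, 2 of 5 passed (*Cxcl12* and *Cxcl13*), and the mean was 2.79 in tumor 1 and 0.47 to 0.96 in the other 3, against -0.47 to 0.39 after PBS. Of 6 listed ligands of T and NK cells, 5 were measured and 1 passed (*Fasl*). Their mean was 0.62 in tumor 1 and -0.06 to 0.26 in the other 3, against -0.23 to 0.16 after PBS. Tumor 1 thus had the highest mean of each list, as it had the highest panel mean and the highest value of its group in 28 of 43 genes. Within the stromal list, *Il7* was at 0.05 in tumor 1 and 0.10 in tumor 3. Over the panel, 22 of 43 genes (51.2%) passed. The part of these cells in the results was not tested.

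The genes of several classes lie next to each other in the genome, and neighbors did not all pass the test. On chromosome 11, *Ccl2*, *Ccl7*, *Ccl8*, and *Ccl1* form a cluster in which all 4 rose, and *Ccl5*, *Ccl9*, *Ccl3*, and *Ccl4* form another in which all 4 rose. Over the panel, 22 of 43 genes (51.2%) rose. On chromosome 5, the order in the RefSeq annotation is *Cxcl5*, *Ppbp*, *Pf4*, *Cxcl3*, *Cxcl15*, *Cxcl1*, and *Cxcl2*, with no other protein-coding gene listed between them. Of these 7, 3 rose, which is near the share over the panel. *Cxcl5*, with the largest difference of the panel (5.47), is the direct neighbor of *Ppbp* (-0.04). *Csf2* (1.20) and *Il3* (-0.38) are likewise neighbors on chromosome 11. These values are log2 differences.

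Tumors given the empty carrier share the PBS controls with the comparison above, and the values are set side by side without a test between the comparisons. In the same limma fit, 11 genes (25.6%) were higher after NanoISD than after D-PDB, and 0 of 43 (0%) were higher after D-PDB than after PBS (1 at an unadjusted p under 0.05). The latter was *Cxcl5*, which was at 1.91, 2.25, 2.09, and 4.72 in D-PDB tumors 1 to 4. Its difference from PBS was 5.47 after NanoISD and 2.74 after D-PDB (adjusted p = 0.630 in limma). NanoISD exceeded D-PDB by 2.73 in *Cxcl5*, which did not pass (adjusted p = 0.0516 in limma). For *Ifna1* the difference from PBS was 1.42 after NanoISD and -0.26 after D-PDB, and that between NanoISD and D-PDB was 1.67 (adjusted p = 0.0140 in limma). For *Cxcl12* the differences from PBS were 1.68 and 1.08, and NanoISD exceeded D-PDB by 0.61 (adjusted p = 0.408 in limma). For *Ccl1* they were 1.53 and 1.03, and NanoISD exceeded D-PDB by 0.50 (adjusted p = 0.458 in limma). For *Cxcl10* and *Il6* the differences from PBS were 3.99 and 3.68 after NanoISD and 0.54 and 0.60 after D-PDB. NanoISD exceeded D-PDB in them by 3.46 and 3.09 (adjusted p = 0.00252 for each in limma). The genes named here were chosen after their values were seen. The panel mean was 0.04, 0.34, -0.12, and 0.86 in D-PDB tumors 1 to 4. D-PDB tumor 4 had 27 genes above all PBS tumors, and NanoISD tumor 2, with a panel mean of 0.58, had 21.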

How the data were processed

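RNA of B16.F10 tumors, 100 ng from each, was hybridized to a NanoString myeloid panel and read on an nCounter system, and the authors processed the barcodes in nSolver. The version of nSolver and its background threshold are not given in the sources used here. The authors deposited a table of log2 fold changes for 12 tumors, 43 panel genes, and 5 house-keeping genes (range -3.35 to 8.08), relative to the house-keeping genes and to PBS treatment. Checked on the values, the mean over PBS-treated tumors departs from 0 by at most 0.0025 in any gene, and the mean over house-keeping genes by at most 0.002 in any tumor. No pseudocount or filter was added.

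Tumors were grouped by title, and the labels describe them as biological replicates. Differences per gene came from limma 3.58.1 under R 4.3.3 (lmFit and eBayes, 3 treatments in 1 fit, Benjamini-Hochberg adjustment over 43 genes, threshold 0.05). The fit was tested on simulated data. The panel mean was compared by a two-sided exact permutation test over 70 splits, with scipy 1.17.1 and Python 3.11.15. The alternatives were other house-keeping sets, each tumor left out, only PBS and NanoISD tumors, the replicate block, array weights, robust shrinkage, values without log, a filter on shared lowest values, and the median over genes.

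Members, receptor classes, and tests were chosen with earlier results of these data known. Values in every tumor are given for the 10 genes with the largest differences, the 5 with the largest gaps, the leading gene of each class with 2 or more members, and all genes with a lower mean. All 48 names matched the RefSeq table of GRCm38.p6, 47 by symbol and 1 (*Tnfa*) by synonym. The measurements name no genome build, and coordinates are given for the printed sequences alone. The receptor grouping of 4 CC chemokines is not reported here.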

Additional observations from a re-analysis of the deposited data

Results flagged for a closer look

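Among the values of single genes in the 4 NanoISD-treated and the 4 PBS-treated tumors, 85 groups were searched for a tumor far from the other 3, by comparing its gap to the nearest tumor with the range of the group. Dixon's limit was passed by 8 groups. For continuous, normally distributed values, chance passes it in about 1 of 20 groups, which gives 4.25 here. After NanoISD, *Csf1* in tumor 2 was at 0.08, with the others between 2.27 and 2.51. *Cxcl12* in tumor 1 was at 3.80, with the others between 0.75 and 1.16, and *Kitl* in tumor 1 was at 2.13, with the others between 0.22 and 0.51. *Cxcl17* in tumor 3 was at 1.30, with the others at -0.04. After PBS, tumor 1 was apart for *Ccl7* (0.67, the others between -0.27 and -0.19) and for *Cxcl3* (1.06, the others between -0.46 and -0.21). *Csf3* in PBS tumor 2 was at 0.22 with the others at -0.07, and *Cxcl17* in PBS tumor 4 was at 0.13 with the others at -0.04. For these 2 genes the other tumors sit at the lowest value of the series, so that any single tumor above it passes the limit. The chance rate does not hold for such groups, and the count of 8 is not read as an excess over 4.25. NanoISD tumor 2 and NanoISD tumor 1 are also the tumors with the lowest and the highest panel mean of their group (0.58 and 2.45).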

How the results depend on the processing

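The count of 22 raised genes lay between 19 and 23 with other house-keeping sets, with the D-PDB tumors out of the fit, with array weights, with robust shrinkage, and after removal of genes whose lowest value recurred in 3 or more tumors. Leaving out each tumor in turn gave 16 to 26 raised genes, 0 lowered genes, and a difference in panel mean of 1.12 to 1.75. The count of genes without overlap then lay between 18 and 29, with the highest number without NanoISD tumor 2. Leaving out a tumor cannot lower this count, so its lower end carries no information. With other house-keeping sets, which can lower it, the count lay between 17 (without *Gapdh*) and 19. On values without log, 0 genes passed in limma (16 at an unadjusted p under 0.05). The cause was not tested. Of the 22 raised genes, 15 passed in every alternative on the log scale, and *Cxcl13*, *Ccl9*, *Ccl2*, *Cxcl12*, *Ccl17*, *Ccl1*, and *Fasl* did not. Calls were gained by *Cxcl15*, *Cxcl14*, *Ccl22*, and *Csf2* without NanoISD tumor 2. With the D-PDB tumors out of the fit, *Ccl2*, *Ccl9*, and *Cxcl12* did not pass (adjusted p of 0.0573, 0.0659, and 0.0633). With the replicate number as a block, 21 genes passed, all but *Ccl1*. NanoISD and PBS tumors of the same number deviated together from their group means for numbers 1 and 3 (correlation over 43 genes 0.47 and 0.41, each closest to its own number) and not for 2 and 4 (-0.14 and -0.03). With D-PDB tumors, same-number correlations ran from -0.52 to 0.27. As not every pair deviated together, the number was not taken to pair samples. The exact permutation p of the panel mean was 0.0571 without any single PBS tumor, with differences of 1.53, 1.47, 1.41, and 1.40 without PBS tumors 1 to 4. The panel means of the groups still did not overlap. The lowest after NanoISD was 0.58 and the highest after PBS was 0.22. Signs turned only for genes near 0, namely *Il7* (0.0050 without *Rpl19* in the scale, 0.0275 and 0.0075 without PBS tumors 2 and 3), *Ppbp* (0.0125 without *Rpl19* in the scale, 0.0746 on values without log, 0.12 without PBS tumor 2, and 0.02, 0.07, and 0.17 without NanoISD tumors 2, 3, and 4), *Lta* (-0.13 with array weights, -0.0058 without PBS tumor 1, and -0.053 without NanoISD tumor 1), and *Cxcl17* (-0.0425 without NanoISD tumor 3). With a tumor left out, these genes ranged from -0.149 to 0.0275 (*Il7*), -0.407 to 0.17 (*Ppbp*), -0.053 to 0.273 (*Lta*), and -0.0425 to 0.404 (*Cxcl17*). With 4 tumors in each group and no counts behind the values, changes in the genes that did not pass are not excluded. The calls depended on the spread of each gene as well as on the size of its difference. *Fasl* passed at 1.19, and *Ccl22* and *Csf2*, each at 1.20, did not.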
